A study of Mus musculus with 10 samples.

Results

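*Vwf*, *F8*, *Tfpi*, *Plat*, *Pros1* and *Ptgs1* were followed across endothelial cells of mouse ear skin. They are 6 of the 42528 genes that could be joined over all plate tables, and they were chosen by name, as genes through which endothelium acts on blood clotting. The study measured single lymphatic endothelial cells (LECs) and blood vascular endothelial cells (BECs) after loss of Tie signaling, the pathway in which angiopoietins bind the Tie2 receptor and its partner Tie1. Single LECs were read by Smart-seq, which covers whole transcripts, on 8 plates, 2 for each of 4 genotypes. In Tie1iDLEC mice (Prox1CreERT2;Tie1fl/fl, Cre+) Tie1 was deleted, and in Tie1Tie2iDLEC mice (Prox1CreERT2;Tie1fl/fl,Tie2fl/fl, Cre+) both receptors were. Their controls were Cre- Tie1fl/fl mice and Cre- Tie1fl/fl,Tie2fl/fl mice, the latter called Tie1Tie2fl/fl here. Pups of all 4 genotypes, controls included, were given 4-hydroxytamoxifen (4-OHT), 62.5 µg by injection into the stomach from P1 to P5. The Cre is driven by *Prox1*, a LEC gene, so blood endothelium was not its target. For the third model, 2 droplet libraries (10x) were made from CD31+ cells of male wild-type C57Bl/6j pups, 1 after control IgG1 and 1 after an Ang2-blocking Ab (18E5), both at 20 mg/kg every 3 days from P16 to P21 by the study's account, while their age label reads P1-P21. The title of the latter also says control, and its treatment label was followed. The Tie1fl/fl and Tie1iDLEC plates numbered 1 were labelled female and all other samples male. By the paper's account, the LECs on the plates came from older pups than the cells of the droplet libraries.

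Endothelium keeps blood fluid and seals vessels that are damaged. von Willebrand factor, encoded by *Vwf*, is stored in endothelial granules, tethers platelets, and carries coagulation factor VIII, the product of *F8*. On the anticoagulant side, *Tfpi* encodes tissue factor pathway inhibitor, which blocks the start of coagulation, and *Pros1* encodes protein S, a cofactor of activated protein C and of *Tfpi* that is also a ligand of the TAM receptors. *Plat* encodes tissue plasminogen activator, which starts the lysis of fibrin. *Ptgs1* encodes cyclooxygenase-1, which makes the precursor of prostacyclin and thromboxane, lipids that restrain or promote platelet aggregation. Venous endothelium is known for high *Vwf*, and LECs, whose lymph holds few platelets, are known for low *Vwf*.

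On GRCm38, the build of the count tables, *Vwf* (ENSMUSG00000001930) lies at chr6:125546774-125686679 on the plus strand with 16.1 kb of exons, and *Ptgs1* (ENSMUSG00000047250) at chr2:36230426-36252272 on the plus strand with 3.88 kb. *F8* (ENSMUSG00000031196) lies at chrX:75172715-75382615 on the minus strand with 9.91 kb, and *Plat* (ENSMUSG00000031538) at chr8:22757727-22782844 on the plus strand with 6.24 kb. *Tfpi* (ENSMUSG00000027082) lies at chr2:84432855-84476775 on the minus strand with 5.46 kb, and *Pros1* (ENSMUSG00000022912) at chr16:62854307-62929346 on the plus strand with 4.09 kb. *F8* overlaps *Fundc2* and a pair of predicted genes, and *Ptgs1* overlaps the predicted gene *Gm43621* on the other strand, so that reads in the overlaps could be assigned to either.

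*Ptgs1* and the prostaglandin transporter *Slco2a1* were both lower in the LECs of Tie1Tie2iDLEC mice, and their promoters are therefore shown. The sequences are the 250 bases before the RefSeq start, on GRCm38.p6 and the plus strand, at chr2:36230176-36230425 for *Ptgs1* and chr9:103008237-103008486 for *Slco2a1*, whose RefSeq start lies inside the longer GENCODE gene. Capitals mark GGAA on either strand, the core that ETS factors bind.
Ptgs1: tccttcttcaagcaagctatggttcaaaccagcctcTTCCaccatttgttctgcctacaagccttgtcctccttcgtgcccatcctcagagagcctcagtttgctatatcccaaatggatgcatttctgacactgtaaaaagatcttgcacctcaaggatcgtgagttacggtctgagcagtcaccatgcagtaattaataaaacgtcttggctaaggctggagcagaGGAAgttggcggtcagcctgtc
Slco2a1: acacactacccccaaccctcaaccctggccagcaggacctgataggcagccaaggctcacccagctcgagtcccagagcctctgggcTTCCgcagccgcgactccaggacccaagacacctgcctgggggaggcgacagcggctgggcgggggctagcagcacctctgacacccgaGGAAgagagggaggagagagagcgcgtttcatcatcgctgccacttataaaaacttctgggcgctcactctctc
Each held 2 matches to GGAA, which 93.4% of 32851 promoters of this length held as well. Neither held GATAA, the GATA core (22.6% of promoters), or TGTTTAC, a FOXO core (3.17% of promoters). Of the 6 genes, 4 had an entry in the promoter table, and *Vwf* and *Plat* were not among them.

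Totals ran from 71309205 to 110741537 counts on a plate, and of 3048 wells in all, 2744 were kept as LECs. *Prox1*, *Flt4*, and *Pdpn* were high in the LEC sum of every plate, at 660 CPM (counts scaled to the library total) or more for *Prox1* and 1190 CPM or more for *Flt4*, whereas the BEC markers *Flt1* and *Ackr1* and the platelet marker *Pf4* did not exceed 2.77, 0.885, and 1.67 CPM. The 7 blood vascular EC markers together summed to 2793 to 3519 CPM, with *Cldn5* the highest on every plate at 2381 to 3037 CPM. The low levels of *Flt1* and *Ackr1* therefore do not speak for all BEC markers. The venous and platelet gene *Selp* reached 9.18 CPM, and the 5 platelet and megakaryocyte markers summed to 0.830 to 15.4 CPM, with *Itga2b* the highest at up to 9.58 CPM. Tie1 was 2209 to 2874 CPM on control plates, 684 and 659 CPM on Tie1iDLEC plates, and 748 and 457 CPM on Tie1Tie2iDLEC plates. *Tek*, which encodes Tie2, was 214 to 341 CPM on control and Tie1iDLEC plates and 32.4 and 51.7 CPM on Tie1Tie2iDLEC plates. Of the 2 plates of every genotype, the table of 1 lists gene symbols and that of the other Ensembl identifiers, and in every genotype *Vwf* and *Ptgs1* had 1 count or more in more wells of the former. Nothing in the labels says how many mice a plate holds, so p-values measure the spread between plates, which may be technical.

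*Pros1* led the 6 genes in control LECs. Per kb of exon, the level was 96.4 ± 17.1 CPM (SD, n = 4 control plates) for *Pros1*, 14.5 ± 3.44 for *Plat*, and 14.3 ± 3.73 for *Tfpi*. *Ptgs1* had 2.32 ± 1.04 CPM per kb, *F8* 0.782 ± 0.491, and *Vwf* 0.445 ± 0.138. *Plat* and *Tfpi* were thus level with each other within the spread of the plates, and so were *F8* and *Vwf*. The 2 proteins on the anticoagulant side and the fibrinolytic enzyme exceeded both procoagulant genes on each control plate.

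The genes also differed in how many LECs carried them. At 10 CPM or more in a well, *Pros1* was found in 81.7% of the 2744 LEC wells, *Tfpi* in 32.3%, *Plat* in 26.7%, *F8* in 5.98%, *Vwf* in 2.26%, and *Ptgs1* in 1.79%. The low levels of *Vwf* and *Ptgs1* therefore came from few wells with many reads. On the 6 control and Tie1iDLEC plates, the 5 highest wells held 86.3% to 96.2% of the *Vwf* counts. For *Ptgs1* the 5 highest wells held 89.9% to 97.6% on those plates. The 62 wells with *Vwf* and the 49 with *Ptgs1* shared 4 wells. *Prox1* and *Flt4* were detected in 100% of these wells, *Ackr1* in 0%, and *Flt1* in 8.06% of the *Vwf* wells and 8.16% of the *Ptgs1* wells, against 5.18% and 5.19% of the other LEC wells. *Ly6c1*, another BEC marker, was in 9.68% of *Vwf* and 12.2% of *Ptgs1* wells, against 8.05% and 8.01% of the other LEC wells. Reads from a BEC caught with a LEC in these wells were not tested beyond these markers.

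**Figure D1:**
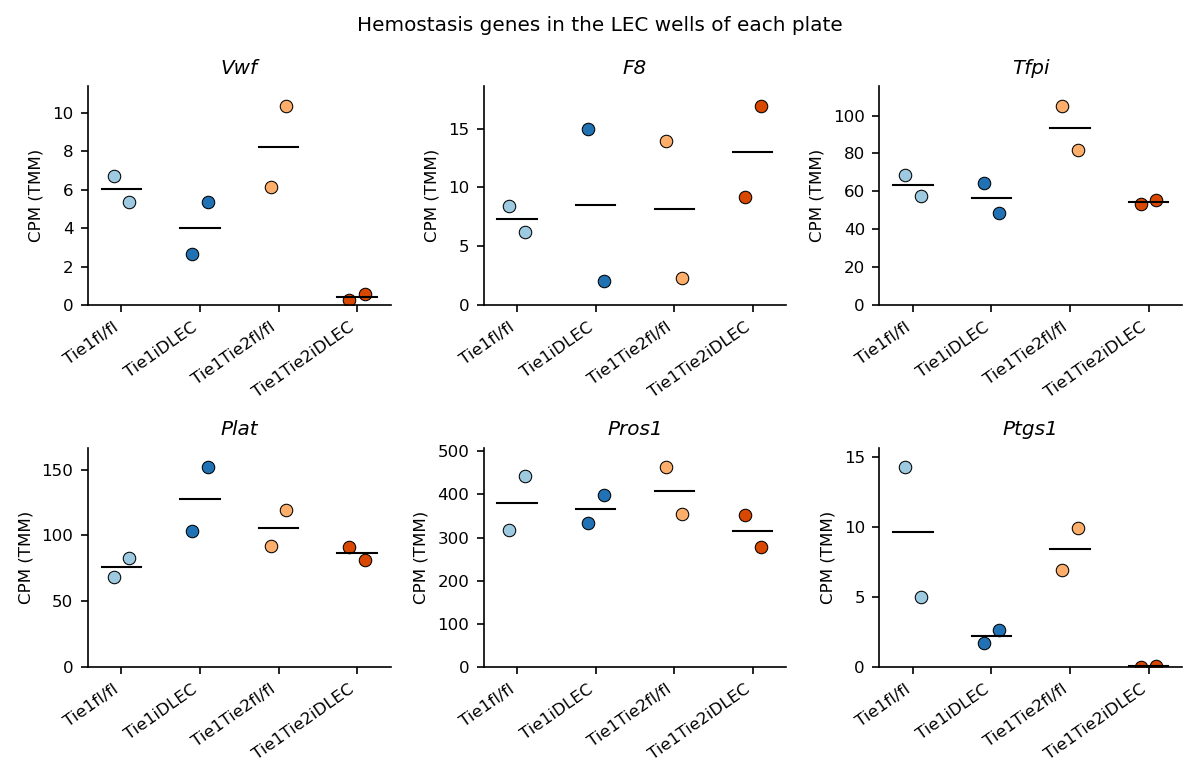
Level of each gene in the summed LECs of each plate, in TMM-normalized CPM on a linear axis from 0, with 1 point per plate and a line at the mean of each genotype. *Ptgs1* and *Vwf* sit at 0.582 CPM or lower on the Tie1Tie2iDLEC plates and at 1.73 CPM or higher on all others, whereas the points of *Pros1* lie between 278 and 463 CPM.

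LEC classes were built by clustering without the hemostasis genes, so that the levels of these genes did not shape them. The wells fell into capillary-like (1269 wells), collector-like (421 wells), valve-like (513 wells), proliferating, interferon, and unnamed classes. On the control plates *Plat* was highest in valve-like LECs. It was 149, 171, 240, and 296 CPM in valve-like LECs of the 4 control plates and 59.0 to 82.6 CPM in their capillary-like LECs, so that these classes did not overlap. On 3 deletion plates another class was higher. Interferon LECs had 959 CPM on Tie1iDLEC 1 and 296 CPM on Tie1Tie2iDLEC 2. On Tie1Tie2iDLEC 1, collector-like LECs had 131 CPM and proliferating LECs 127 CPM. The 5 highest wells held 59.3% to 95.7% of the valve-like *Plat* counts of a plate. At 10 CPM or more, *Plat* was found in 32.6% of valve-like, 33.3% of unnamed, 28.4% of proliferating, 27.8% of collector-like, and 22.1% of capillary-like wells. Over all 8 plates the valve-like level exceeded the capillary-like level by 1.41 ± 0.53 on the log2(CPM + 1) scale (SD, n = 8), in 8 of 8 plates (two-sided sign-flip test, exact p = 0.0078, which is as small as 8 plates can give, and adjusted p = 0.14 over 18 comparisons). Against collector-like LECs it was higher by 1.23 ± 0.75 in 7 of 8 plates (exact p = 0.016, adjusted p = 0.14). None of the 18 comparisons passed the adjustment. Of the 2 valve-like clusters in the control plates, that led by *Slc41a1* and *Neo1* had 208 to 370 CPM of *Plat*. The smaller cluster led by *Cd79a* and *Sbspon* had 1.71 to 260 CPM, and on Tie1Tie2fl/fl 1 it was the higher, at 260 against 228 CPM. Over all plates the share of wells at 10 CPM or more was alike, 32.5% of 424 wells and 32.6% of 89 wells.

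*Vwf* and *Ptgs1* were higher in collector-like than in capillary-like LECs of the controls. In collector-like LECs *Vwf* was 19.8, 20.6, 11.7, and 42.0 CPM on the control plates, in the order Tie1fl/fl 1 and 2 and Tie1Tie2fl/fl 1 and 2. Capillary-like LECs of the same plates had 0.244 to 4.07 CPM of *Vwf*. For *Ptgs1* the collector-like levels were 31.4, 19.5, 27.2, and 36.1 CPM and the capillary-like levels 0.0814 to 2.66 CPM. On Tie1fl/fl 1 other classes were higher still, with 24.8 CPM of *Vwf* in unnamed and 88.7 CPM of *Ptgs1* in proliferating LECs. In the collector-like class of a control plate, the highest 1 well held 42.2% to 87.1% of the *Vwf* counts and 46.7% to 58.1% of the *Ptgs1* counts. Over all 8 plates the difference was 2.16 ± 2.15 for *Vwf* (higher in 6 of 8, exact p = 0.039, adjusted p = 0.19) and 2.50 ± 2.12 for *Ptgs1* (higher in 5 of 8, exact p = 0.062, adjusted p = 0.19). *Tfpi* and *Pros1* had no class in which all plates were higher, with mean differences of 0.41 or less in size between any 2 classes.

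**Figure D2:**
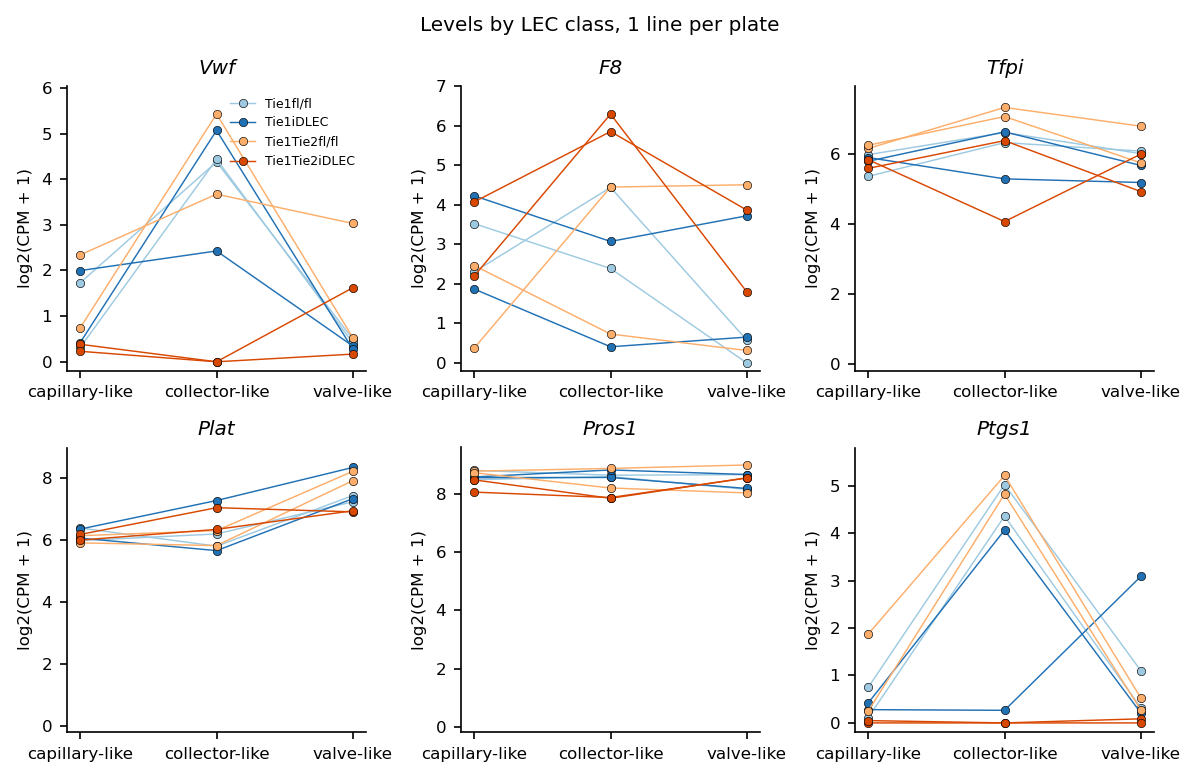
Level of each gene in capillary-like, collector-like, and valve-like LECs, as log2(CPM + 1) of the summed wells, with 1 line per plate, colored by genotype. Of the 3 classes shown, *Vwf* and *Ptgs1* peak in the collector-like class on control plates, where they lie at 11.7 CPM or higher, and are at 0 there on the Tie1Tie2iDLEC plates, while *Plat* is the highest of the 3 in the valve-like class on 7 of 8 plates.

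Blood endothelium was read in the droplet libraries, which hold molecule counts (UMIs). The IgG library kept 3438 cells of 4685 barcodes and the Ang2 Ab library 2963 of 4331, before removal of 23 and 2 cells called as doublets, and the libraries shared 5 barcodes. With 1 library per condition there is no replicate check, so values are given with exact intervals that cover counting error only. Clusters were named from markers. A pair of BEC clusters is called by *Lrat* and *Apcdd1*, which ranked high in both. That name was given before arterial, capillary, and venous names were tried on them.

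*Vwf* was a venous gene. In the IgG library it had 1565 CPM (95% interval 1497–1635) in venous-like BECs, 1149 (1101–1199) in activated venous-like BECs, which carried *Sele* and *Icam1*, and 544 (516–573) in *Lrat*- and *Apcdd1*-led BECs. Arterial-like BECs had 437 CPM (402–474) and capillary-like BECs 96.4 (87.9–106), so that the 5 BEC types stood in an order without overlap of intervals. LECs came far below them, with 12.5 CPM (9.96–15.6) in collector-like, 8.0 (5.32–11.6) in valve-like, and 6.37 (4.57–8.64) in capillary-like cells. Keratinocyte-like cells, which should lack *Vwf*, had 15.6 CPM (7.79–27.9). The LEC levels were therefore at or below that background and are not read as expression. After every cell was thinned to 2000 UMIs, 89.5% of venous-like cells and 1.09% to 3.29% of cells of the LEC classes had a *Vwf* UMI (96.1% and 7.53% to 11.9% before thinning, at median depths of 8907 and 11078 to 12767 UMIs). In keratinocyte-like cells the share was 10.3% before thinning, at a median of 10226 UMIs, and 0 of 33 cells after it, and in cartilage-like cells it was 14.4% and 1.04%.

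*Ptgs1* was venous as well. It had 312 CPM (282–344) in venous-like and 254 (232–278) in activated venous-like BECs, against 31.1 (26.3–36.4) in capillary-like, 26.9 (21–33.9) in *Lrat*- and *Apcdd1*-led, and 5.25 (2.11–10.8) in arterial-like BECs. Among LECs, collector-like cells had 9.29 CPM (7.09–12), and capillary-like and valve-like cells had 0.621 (0.169–1.59) and 0.571 (0.0692–2.06). The collector-like cells thus exceeded the other LECs by more than the counting error, and 6.44% of them had a *Ptgs1* UMI against 0.645% of capillary-like LECs at a like median depth (12309 and 12767 UMIs). Keratinocyte-like cells, which may express *Ptgs1* themselves, had 18.5 CPM (9.82–31.5), 46.2% of it in 1 cell.

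*F8* was low everywhere and was not a marker of any BEC type. Its level was 12.7 CPM (10.1–15.8) in capillary-like and 9.91 (7.63–12.7) in collector-like LECs and 11.7 (6.57–19.4) in venous-like BECs. Valve-like LECs had 5.71 CPM (3.49–8.83), capillary-like BECs 4.09 (2.50–6.31), and arterial-like BECs 3.75 (1.22–8.75). Intervals of neighbours in this order overlapped. That of capillary-like LECs, however, lay above those of valve-like LECs, capillary-like BECs, and arterial-like BECs. No UMI was seen in keratinocyte-like cells, a count of 0 that allows up to 4.26 CPM at the floor of 3 counts and 5.23 CPM by the exact interval.

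The 2 genes on the anticoagulant side were higher in LECs than in capillary and arterial BECs. *Pros1* was 187 CPM (176–197) in capillary-like, 165 (156–175) in collector-like, and 150 (138–164) in valve-like LECs, and 86.2 (78.2–94.8) in capillary-like and 91.5 (76.0–109) in arterial-like BECs. Venous-like BECs came closest, with 128 CPM (109–149). *Tfpi* was 67.2 CPM (61.0–73.8) in collector-like, 60.6 (54.7–66.9) in capillary-like, and 56.0 (48.4–64.4) in valve-like LECs, level with venous-like BECs at 65.0 (51.7–80.5) and above capillary-like and arterial-like BECs at 22.1 (18.1–26.6) and 21.8 (14.6–31.2). Outside endothelium, mural-like cells had 63.7 CPM (54.5–74.1) of *Tfpi*, level with LECs, and fibroblast-like cells 45.5 (32.9–61.3).

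*Plat* was also found outside endothelium. Fibroblast-like cells had 275 CPM (243–311), of which 71.9% came from 1 cell, and mural-like cells had 83.3 CPM (72.7–95.1). Among endothelial types the valve-like LECs had the most, 68.0 CPM (59.6–77.2), an interval that overlapped that of mural-like cells, followed by collector-like LECs with 49.1 (43.8–54.8), 24.0% of it in 1 cell, and arterial-like BECs with 47.3 (36.3–60.5). The last 2 did not differ beyond counting error. Capillary-like LECs and capillary-like BECs had 26.9 (23.0–31.2) and 24.7 CPM (20.5–29.5), and venous-like BECs 13.3 (7.75–21.3).

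**Figure D3:**
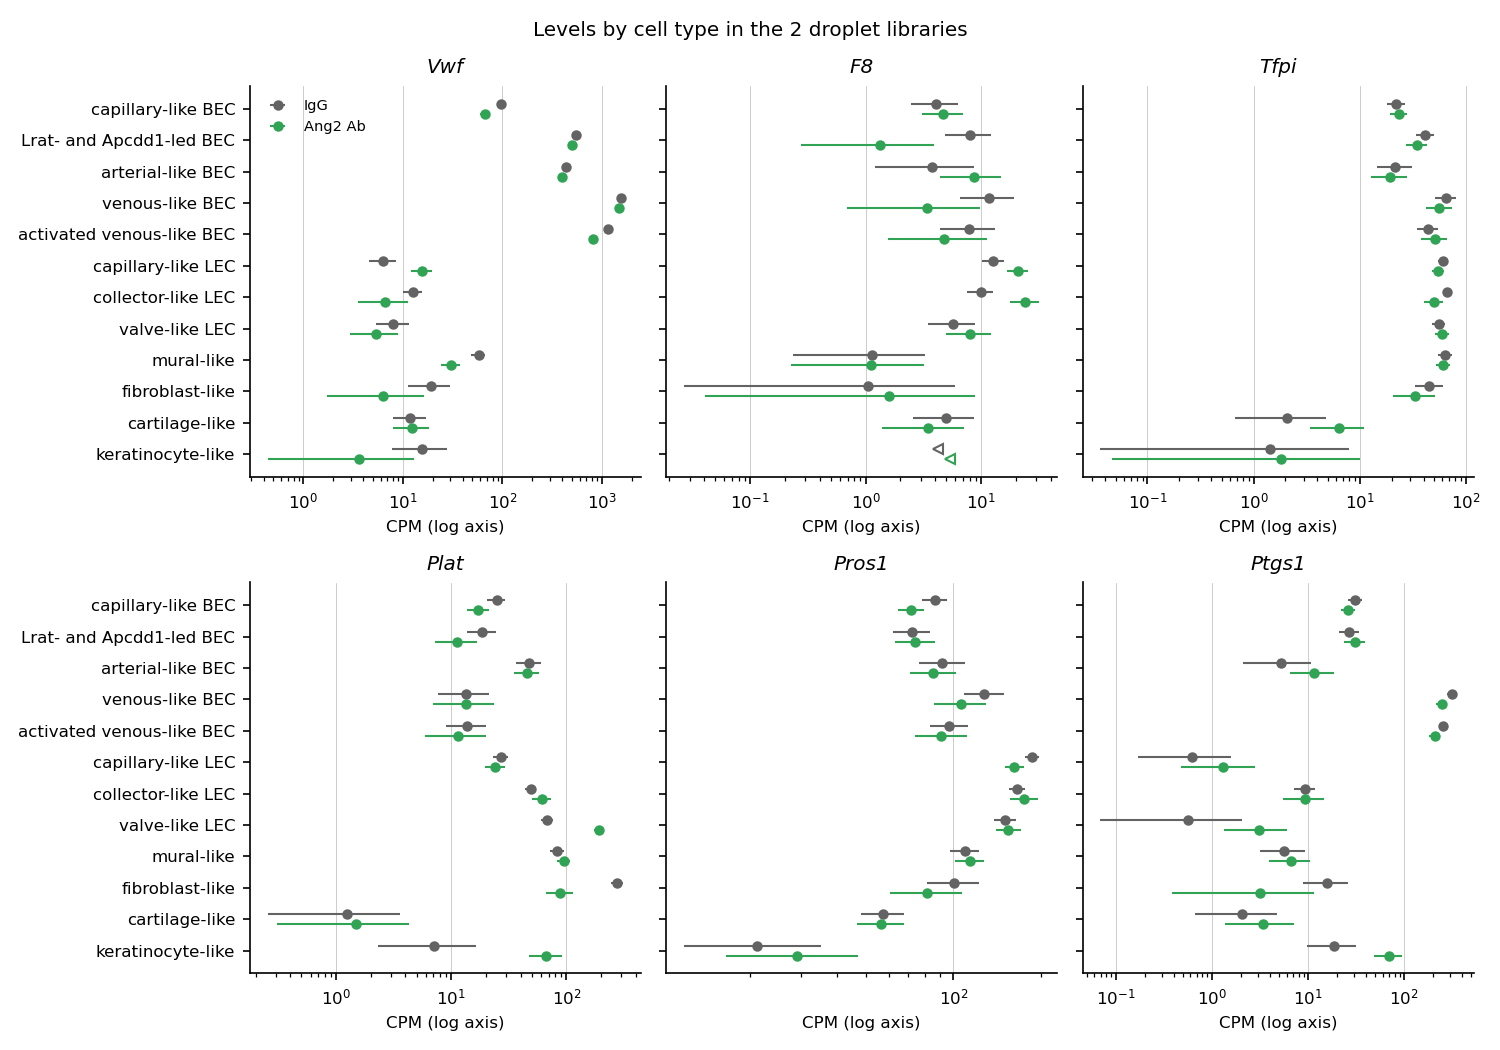
Level of each gene by cell type in the IgG and Ang2 Ab libraries, in CPM of the summed UMIs on a log axis. Points are levels, bars are exact 95% Poisson intervals, and open left-pointing triangles mark the floor of 3 UMIs where no UMI was seen. With IgG, *Vwf* and *Ptgs1* peak in venous-like BECs at 1565 and 312 CPM, and *Pros1* is highest in LECs at 187 CPM. *Tfpi* is at 67.2 CPM in collector-like LECs, 65.0 in venous-like BECs, and 63.7 in mural-like cells, with intervals that overlap.

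Across the 23 clusters of the IgG library with 20 cells or more, the genes whose levels ran most like each gene were taken from 9243 genes by Pearson's r of log2 CPM. The clusters share 1 library and differ in depth, so r is a description. *Syt15* (r = 0.95), *Csf2rb2* (0.94), and *Ace* (0.92), the angiotensin-converting enzyme, ran most like *Vwf*. *Cysltr1*, a leukotriene receptor (r = 0.85), *Vwf* itself (0.82), and the venous marker *Ackr1* (0.81) ran most like *Ptgs1*. For the broadly spread genes the nearest were *Tpcn1* for *Pros1* (0.90), *Lamc1* for *Tfpi* (0.86), *C1galt1c1* for *Plat* (0.78), and *Cep162* for *F8* (0.88).

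*Ptgs1* was nearly absent from the LECs of Tie1Tie2iDLEC mice, which were not selected for loss of the receptors. Its level was 14.3 and 5.00 CPM on the Tie1fl/fl plates, 6.89 and 9.89 on the Tie1Tie2fl/fl plates, 1.73 and 2.66 on the Tie1iDLEC plates, and 0.0156 and 0.0188 on the Tie1Tie2iDLEC plates. All 4 control plates thus lay above both Tie1iDLEC plates, which lay above both Tie1Tie2iDLEC plates. The counts behind these levels were 551 and 955 on the Tie1Tie2fl/fl plates against 1 and 2 on the Tie1Tie2iDLEC plates, so the ratio of control to deleted was 486 (95% interval from counting 166–2358). That interval does not cover the concentration of reads in few wells or the spread between plates, and is too narrow for either. In the fit with Tie1/-2 deletion, *Ptgs1* fell by 8.79 on the log2 scale (SE 0.99, n = 2 against 2, edgeR quasi-likelihood test, adjusted p = 0.0054), a size that with so few counts depends on the prior count. Without the Tie1Tie2iDLEC plate numbered 2, the adjusted p was 0.0595. At 1 count or more, *Ptgs1* was seen in 18 and 51 LEC wells of the control plates and in 1 and 2 wells of the deleted plates, and within each table layout the wells went from 18 to 1 and from 51 to 2. In these sums, fewer cells of a type and less RNA per cell cannot be told apart.

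Tie1 deletion alone gave a smaller difference in *Ptgs1* that did not pass. The fit gave -2.13 (SE 0.70, unadjusted p = 0.0155, edgeR adjusted p = 1), both Tie1iDLEC plates lying below both controls. The difference between the deletions was -6.66 (SE 1.12, edgeR adjusted p = 0.097), and over the average of both deletions *Ptgs1* fell by 5.46 (SE 0.60, edgeR adjusted p = 0.0070, or 0.051 without the Tie1iDLEC plate numbered 1).

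*Vwf* also fell with Tie1/-2 deletion. Its level was 6.74 and 5.37 CPM on the Tie1fl/fl plates, 6.13 and 10.4 on the Tie1Tie2fl/fl plates, 2.67 and 5.37 on the Tie1iDLEC plates, and 0.250 and 0.582 on the Tie1Tie2iDLEC plates. The double-deleted plates lay below all others, and the Tie1iDLEC plates did not stand apart from their controls. *Vwf* fell by 4.30 on the log2 scale (SE 0.79, n = 2 against 2, edgeR adjusted p = 0.049), from 1490 to 78 counts, a ratio of control to deleted of 18.5 (counting interval 14.7–23.5). Here too the interval leaves out the concentration of reads in few wells. The call sat at the threshold. It was lost when any 1 of the 8 plates was left out, with adjusted p from 0.066 to 0.21, and when the highest well of each plate was left out (-4.45, adjusted p = 0.053). With the fibroblast-like and keratinocyte-like wells put back it was -2.02 (adjusted p = 0.52). Of these, the wells of the Tie1Tie2iDLEC plate numbered 2 held 415 *Vwf* counts, 350 of them in 1 well. With Tie1 deletion the fit gave -0.59 (SE 0.69, edgeR adjusted p = 1), and the difference between the deletions, -3.70 (SE 1.01), had an adjusted p of 0.37.

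The loss of both genes ran with the loss of collector-like LECs. Collector-like cells made up 16.9% to 24.0% of the LECs of control plates, 14.7% and 15.0% of Tie1iDLEC, and 4.67% and 4.55% of Tie1Tie2iDLEC, which left 33 collector-like wells. In those wells *Ptgs1* and *Vwf* had 0 counts, against 1357 and 1186 in the collector-like wells of the Tie1Tie2fl/fl plates. With the floor of 3 counts over both plates (0.348 CPM), the summed CPM gave a bound of 91.9-fold for *Ptgs1* and 80.4-fold for *Vwf*. Over all plates, however, only 4.75% of the 421 collector-like wells reached 10 CPM of *Ptgs1*, and 4.75% reached it for *Vwf*. At such shares 33 wells may hold no carrying well, so these bounds do not give a fold change per cell. The exact counting intervals gave lower bounds of 74.7 and 65.2, and both kinds of bound cover counting error only and not the concentration of reads in few wells. The fits in that class gave an adjusted p of 0.21 for *Ptgs1* and 0.14 for *Vwf*. Without the collector-like cluster, an alternative chosen after the data were seen, neither call held. With Tie1/-2 deletion the difference in the remaining LECs was -5.69 for *Ptgs1* (edgeR adjusted p = 0.43) and -2.48 for *Vwf* (adjusted p = 0.71). The collector-like wells held 1357 of the 1506 *Ptgs1* counts and 1186 of the 1490 *Vwf* counts of the Tie1Tie2fl/fl plates. Leaving them out removed most counts of both genes, so no conclusion is drawn from the lost calls. The summed venous markers, of which *Ephb4* was the most abundant, were lower as well, with 1405 to 1602 CPM on control plates, 1287 and 1356 on Tie1iDLEC, and 631 and 832 on Tie1Tie2iDLEC. Between the Tie1Tie2fl/fl and Tie1Tie2iDLEC plates other marker sums moved too. The 8 mural markers summed to 26.5 and 69.5 CPM against 152 and 170 CPM, led on the latter by *Kcnj8*. That gene is also a leading gene of a capillary-like LEC cluster. The 4 mast cell markers summed to 1.16 and 3.75 CPM against 12.1 and 15.0 CPM. Nearly all of this was *Kit*, at 1.13 and 3.74 CPM against 11.5 and 15.0 CPM, and *Cpa3* was at 0 on every plate. *Kit* is also a leading gene of a capillary-like BEC cluster. The 4 keratinocyte markers summed to 24.8 and 42.5 CPM against 5.45 and 9.64 CPM. Whether other cell types had a part in these sums or in the result was not tested.

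In all, 2 of the 6 genes were called with Tie1/-2 deletion, both lower, where 1.18% of 19879 genes were called. The median difference over the 6 genes was -0.58, against 0.00253 over all genes tested. With Tie1 deletion 0 of the 6 were called, 2 of them having an unadjusted p under 0.05. There, 0 of 19879 genes were called by edgeR, a background of 0%, with 856 at an unadjusted p under 0.05 and 177 called by DESeq2. The genes that edgeR did not call include Tie1 itself, at 2209 and 2874 CPM on Tie1fl/fl and 684 and 659 CPM on Tie1iDLEC plates. The lack of a call with Tie1 deletion therefore does not show that a gene was unchanged. Of the difference between the deletions, 0 of the 6 passed (background 0.136%), and of the average effect 1 of the 6, *Ptgs1* (background 0.996%). The comparisons share plates, so they are not independent.

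**Figure D4:**
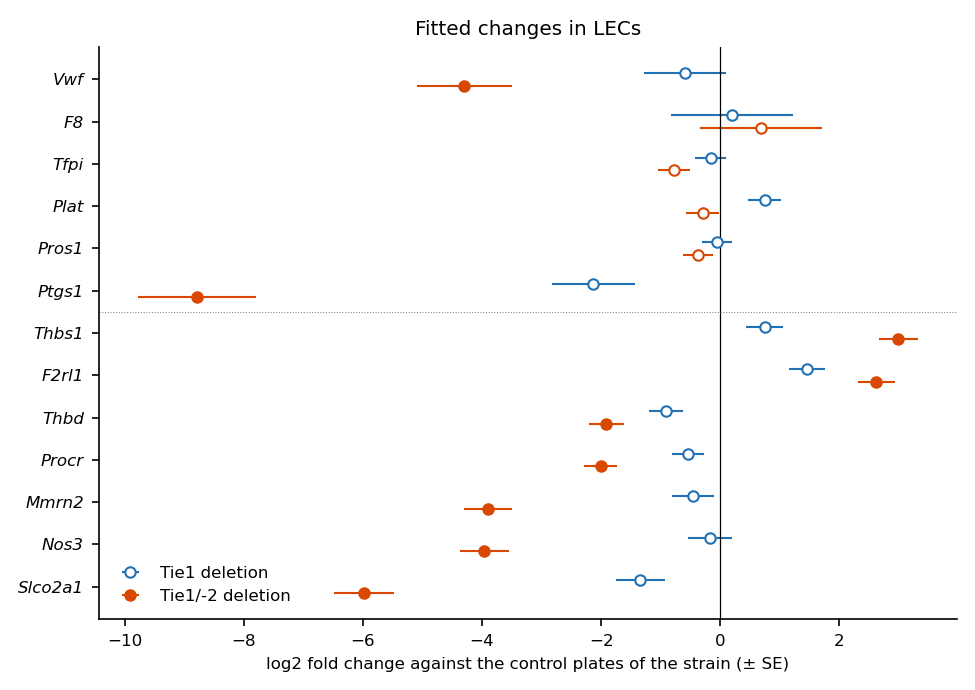
Fitted log2 difference with Tie1 deletion and with Tie1/-2 deletion in the summed LECs of all plates, with bars of 1 SE, for the 6 genes (above the dotted line) and the 7 other hemostasis genes called (below it). Filled points have an adjusted p under 0.05 (edgeR) and open points do not. Among the 6 genes, *Ptgs1* at -8.79 and *Vwf* at -4.30 with Tie1/-2 deletion are the filled points, and *Pros1* lies at -0.05 and -0.38.

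*Plat* showed opposite signs in the deletions. It was 68.4 and 83.0 CPM on Tie1fl/fl and 103 and 152 CPM on Tie1iDLEC plates, which did not overlap, and 92.0 and 119 CPM on Tie1Tie2fl/fl and 91.1 and 81.5 CPM on Tie1Tie2iDLEC plates. The fit gave 0.75 (SE 0.28, unadjusted p = 0.0256, edgeR adjusted p = 1) for Tie1 deletion and -0.29 (SE 0.28, adjusted p = 0.82) for Tie1/-2 deletion, and the difference between them, -1.05 (SE 0.39), had an unadjusted p of 0.0273 and an adjusted p of 0.60. None of these passed. In valve-like LECs *Plat* was 160 and 322 CPM on Tie1iDLEC plates and 119 and 122 CPM on Tie1Tie2iDLEC plates, the latter below all 4 controls. The valve-like fit with Tie1/-2 deletion gave -1.14 (SE 0.39, edgeR adjusted p = 0.48).

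*F8* varied more between plates of a genotype than between genotypes. It was 8.47 and 6.26 CPM on Tie1fl/fl, 14 and 2.30 on Tie1Tie2fl/fl, 14.9 and 2.03 on Tie1iDLEC, and 9.16 and 16.9 on Tie1Tie2iDLEC plates. The genotypes overlapped in all comparisons, and the adjusted p was 1 and 0.91 with Tie1 and Tie1/-2 deletion. In collector-like LECs *F8* was 77.3 and 56.7 CPM on the Tie1Tie2iDLEC plates, from 17 and 16 wells, against 0.661 to 20.8 CPM on control plates. That difference, 2.57 (SE 1.75), had an edgeR adjusted p of 0.61.

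The anticoagulant genes differed little. *Tfpi* was 105 and 81.9 CPM on Tie1Tie2fl/fl and 53.4 and 55.6 CPM on Tie1Tie2iDLEC plates, a difference of -0.78 (SE 0.27, unadjusted p = 0.0185, edgeR adjusted p = 0.34) in which the plates did not overlap. Its difference with Tie1 deletion was -0.16 (SE 0.26). *Pros1* was 463 and 354.1 CPM on Tie1Tie2fl/fl and 352 and 278 CPM on Tie1Tie2iDLEC plates, a difference of -0.38 (SE 0.25, edgeR adjusted p = 0.69), and -0.05 (SE 0.25) with Tie1 deletion.

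No member was called within a LEC class. With Tie1/-2 deletion 0 of the 6 were called in capillary-like (background 0.581% of 17205 genes), collector-like (0.384% of 14577), and valve-like LECs (0.262% of 15266). With Tie1 deletion 0 genes were called in any of the 3 classes by edgeR, a background of 0%, with 831, 390, and 945 genes at an unadjusted p under 0.05. DESeq2 was not run by class. In the capillary-like class the fit gave -6.05 (SE 2.06, adjusted p = 0.37) for *Ptgs1* and -3.33 (SE 1.67, adjusted p = 0.61) for *Vwf* with Tie1/-2 deletion, from levels of 2.66 and 4.07 CPM or less.

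The other hemostasis genes were read from 7 lists with 81 genes. With Tie1 deletion none of those tested was called by edgeR, as for all genes. With Tie1/-2 deletion 7 were called, against the background of 1.18% over all genes. Among anticoagulants, 2 of 8 tested were lower and none higher (list median -0.38). *Procr*, the endothelial protein C receptor, was 181 and 172 CPM on Tie1Tie2fl/fl and 53.2 and 34.7 CPM on Tie1Tie2iDLEC plates (fell by 2.01, SE 0.27, edgeR adjusted p = 0.012), and *Thbd*, thrombomodulin, was 215 and 233 CPM against 64.6 and 54.7 CPM (fell by 1.91, SE 0.29, adjusted p = 0.021). Both proteins tie protein C activation to the endothelial surface. The paper also counts *Procr* among its markers of collector LECs. The call for *Procr* was lost without either Tie1Tie2fl/fl plate (adjusted p 0.099 and 0.061) or without the Tie1Tie2iDLEC plate numbered 2 (0.05002), and that for *Thbd* without any 1 of the 4 plates of its strain (0.073 to 0.12). On the Tie1iDLEC plates *Procr* was 116 and 92.8 CPM and *Thbd* 128 and 149 CPM, in each case below all control plates.

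Of 16 prostanoid genes tested, *Slco2a1* was the only one called (list median -1.66). This carrier takes up prostaglandins for breakdown. The median includes genes near 0, such as *Ptgs2*, *Hpgd*, and *Pla2g4a*, at 0.59 CPM or less on every plate. *Ptger1*, *Ptges2*, *Ptges3*, and *Tbxa2r*, at 16.9 CPM or more, overlapped between Tie1Tie2fl/fl and Tie1Tie2iDLEC plates. At lower levels *Ptger2* did not overlap, with 9.03 and 3.86 against 1.16 and 1.38 CPM. Nor did *Ptgds*, with 5.05 and 1.32 against 0 and 0.0094 CPM, or *Ptges*, with 0.513 and 0.694 against 0.344 and 0.272 CPM. *Ptger4*, *Hpgds*, *Ptgis*, and *Tbxas1* overlapped. The median is therefore not read as a fall of the whole list. *Slco2a1* was 87.2, 119, 92.7, and 65.9 CPM on the control plates, 33.0 and 48.7 on Tie1iDLEC, and 0.766 and 1.71 on Tie1Tie2iDLEC plates, so that the 3 levels did not overlap. It fell by 5.98 (SE 0.51, edgeR adjusted p = 0.0024) with Tie1/-2 deletion, and the difference between the deletions was -4.65 (SE 0.61, adjusted p = 0.042). The call on that difference was lost without any 1 of the plates (adjusted p 0.052 to 0.15). Without the collector-like cluster the values were -3.58 (adjusted p = 0.080) and -1.35 (adjusted p = 0.89).

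The thrombin and protein S receptors had 1 call among 7 tested (list median 0.46). *F2rl1*, a receptor cleaved by trypsin-like proteases, was 41.8 and 30.1 CPM on Tie1Tie2fl/fl and 203 and 240 CPM on Tie1Tie2iDLEC plates and rose by 2.62 (SE 0.31, edgeR adjusted p = 0.0068, or 0.064 without the Tie1Tie2fl/fl plate numbered 2). Its relative *F2r*, the main thrombin receptor, was 372 and 295 against 519.5 and 398 CPM, a difference of 0.46 (SE 0.25, adjusted p = 0.60). On the Tie1iDLEC plates *F2rl1* had 62.2 and 89.9 CPM, between the controls and the double-deleted plates.

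Among platelet modulators, 1 of 7 was higher and 2 were lower (list median -1.45). *Thbs1*, thrombospondin-1, rose by 2.99 (SE 0.33, edgeR adjusted p = 0.0049, or 0.071 without the Tie1Tie2fl/fl plate numbered 1), from 128 and 148 CPM to 1207 and 989 CPM. *Nos3*, the endothelial nitric oxide synthase, was 205 and 277 CPM against 17.6 and 13.4 CPM and fell by 3.96 (SE 0.42, adjusted p = 0.0041). *Mmrn2*, an endothelial matrix protein, was 371 and 328 CPM against 32.6 and 14.3 CPM and fell by 3.90 (SE 0.40, adjusted p = 0.0041). Its relative *Mmrn1* differed by 0.04 (SE 0.17, adjusted p = 0.98). The paper lists *Mmrn2* and *Procr* among its markers of collector LECs, a class that made up less of the LECs on Tie1Tie2iDLEC plates. Without the collector-like cluster, *Mmrn2*, *F2rl1*, and *Thbs1* were still called by edgeR, and *Procr*, *Thbd*, and *Nos3* had adjusted p-values of 0.079, 0.15, and 0.052.

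The remaining lists had no call by edgeR. Of the coagulation factors 3 of 13 passed the filter (median -0.35), of the fibrinolysis genes 7 of 10 (median 0.85), and of the genes for handling von Willebrand factor and factor VIII 13 of 16 (median 0.07). *Cd63*, a protein of endothelial storage granules, differed by 0.59 (SE 0.26, adjusted p = 0.47). The fibrinolysis genes *Anxa2* and *S100a10*, which form a plasminogen-binding complex, differed by 0.22 and 0.27.

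With the Ang2 Ab, *Plat* in valve-like LECs gave the largest ratio among member levels with 100 or more UMIs. It was 68.0 CPM in the IgG library and 190 CPM in the Ang2 Ab library, from 238 and 496 UMIs, a ratio of 2.80 (95% counting interval 2.39–3.28). Both valve-like clusters had it, with ratios of 3.59 and 2.38, and the highest cell held 8.40% and 8.87% of the UMIs. The share of valve-like cells with a *Plat* UMI was 28.3% with IgG and 35.7% with Ang2 Ab, and 10.0% and 17.1% after thinning. In cartilage-like cells, which should lack it, the shares before thinning were 3.09% and 3.66%. Keratinocyte-like cells had 7.10 CPM with IgG and 67.0 CPM with Ang2 Ab, the latter all in 1 cell, and fibroblast-like cells 275 and 87.7 CPM. Mural-like cells had 83.3 and 94.8 CPM, so that valve-like LECs had the highest level of these types with Ang2 Ab. *Plat* was lower in capillary-like BECs (0.695, 0.524–0.920) and, at 49 against 25 UMIs, in *Lrat*- and *Apcdd1*-led BECs (0.606, 0.358–1.00).

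*F8* was higher in LECs of the Ang2 Ab library, at 10.1 and 17.9 CPM over all LECs, a ratio of 1.77 (1.42–2.21). The ratio was 1.64 (1.21–2.23) in capillary-like and 2.43 (1.63–3.60) in collector-like LECs, from 82 and 96 and from 64 and 47 UMIs. In *Lrat*- and *Apcdd1*-led BECs, by contrast, *F8* had 21 UMIs with IgG and 3 with Ang2 Ab, a ratio of 0.170 (0.0324–0.568).

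*Vwf* was lower in 2 of the 5 BEC types, with ratios of 0.691 (0.60–0.795) in capillary-like and 0.710 (0.655–0.769) in activated venous-like BECs. In venous-like, arterial-like, and *Lrat*- and *Apcdd1*-led BECs the ratios were 0.945 (0.881–1.01), 0.919 (0.817–1.03), and 0.927 (0.856–1.00). In capillary-like LECs *Vwf* had a ratio of 2.42 (1.63–3.65), and 47 of its 71 UMIs with Ang2 Ab came from 1 cell. Without cells of over 5% mitochondrial UMIs it was 0.671, so this ratio rests on few cells.

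*Ptgs1* was lower in both venous types, at 312 and 247 CPM in venous-like (0.791, 0.668–0.935) and 254 and 209 CPM in activated venous-like BECs (0.822, 0.697–0.967). In collector-like LECs it was 9.29 and 9.23 CPM (0.994, 0.552–1.71). *Tfpi* was lower in collector-like LECs (0.748, 0.595–0.934), and *Pros1* in capillary-like BECs (0.830, 0.721–0.956) and capillary-like LECs (0.869, 0.792–0.953). Of the 48 ratios of 6 genes in 8 endothelial types, 16 had an interval without 1. The share over all genes by this measure was not computed, so that count is not read as a result about the 6 genes. No test stands behind them, since each condition was 1 library.

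A fixed size is the other measure of these ratios. Past 1.5-fold in either direction, with 20 or more UMIs over both libraries, lay 0 of 6 genes in capillary-like BECs (background 9.03% of 11280 genes), 2 of 6 in *Lrat*- and *Apcdd1*-led BECs (12.3%), 1 of 5 in arterial-like BECs (12.6%), 0 of 5 in venous-like BECs (17.4%), and 1 of 6 in activated venous-like BECs (18%). Among LECs they were 2 of 5 in capillary-like (13.5%), 2 of 6 in collector-like (15%), and 1 of 5 in valve-like cells (12.1%). The genes past it were *F8* and *Plat* in *Lrat*- and *Apcdd1*-led BECs, *Ptgs1* in arterial-like and *F8* in activated venous-like BECs, *Vwf* and *F8* in capillary-like and collector-like LECs, and *Plat* in valve-like LECs, of which *Plat* in valve-like LECs alone had over 200 UMIs. The *Vwf* ratios in LECs are between levels that with IgG lay at or below background, and no change is read from them.

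**Figure D5:**
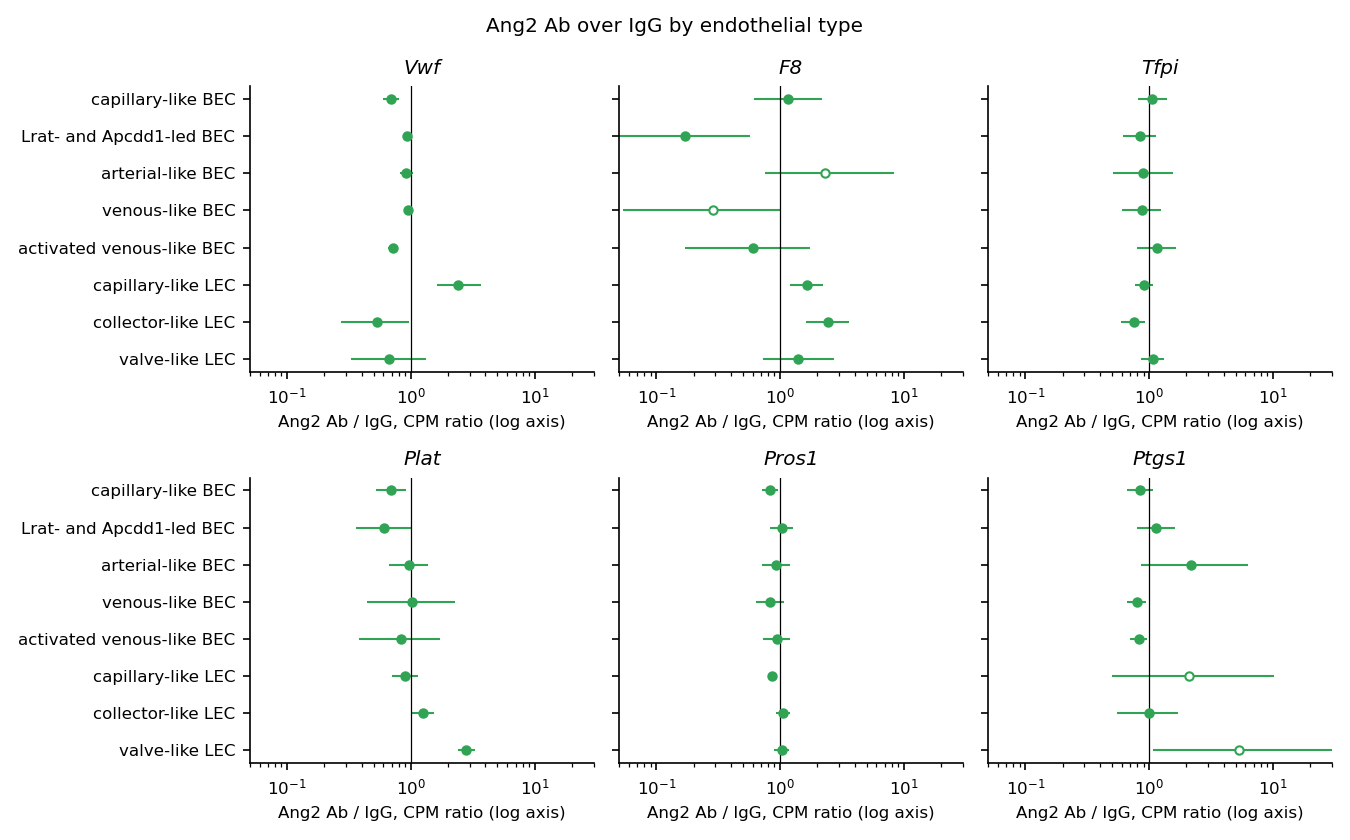
Ratio of the level with Ang2 Ab to that with IgG for each gene in each endothelial type, on a log axis, with exact 95% intervals that cover counting error. Open points have under 20 UMIs over both libraries, and intervals that reach an end of the axis go on beyond it. *Plat* in valve-like LECs lies at 2.80 and *F8* in collector-like LECs at 2.43, and *Vwf* in capillary-like and activated venous-like BECs lies at 0.691 and 0.710.

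The 7 hemostasis genes called with Tie1/-2 deletion were also read in these libraries. The libraries come from other mice, younger by the paper's account, and from another assay. Over all LECs, *F2rl1* was 45.5 and 127 CPM with IgG and Ang2 Ab (ratio 2.78, 2.54–3.06) and *Thbs1* 156 and 479.6 CPM (3.06, 2.92–3.22). *Procr* was 135 and 56.9 CPM (0.421, 0.382–0.464), and within the classes its ratio was 0.278 in capillary-like, 0.539 in valve-like, and 0.729 in collector-like LECs. *Slco2a1* was 32.3 and 16.3 CPM (0.503, 0.417–0.605). In collector-like LECs, where it was highest, it was 74.4 and 67.2 CPM (0.903, 0.738–1.1). Within capillary-like and within valve-like LECs it was lower with Ang2 Ab by more than 1.5-fold. Collector-like cells numbered 497 with IgG and 162 with Ang2 Ab, and what their number adds to the ratio over all LECs was not tested. *Thbd* had a ratio of 0.744 (0.664–0.833), *Nos3* of 0.875 (0.784–0.975), and *Mmrn2* of 0.633 (0.568–0.705), which within classes was 0.850, 0.820, and 1.14 in capillary-like, collector-like, and valve-like LECs. Over all LECs, 12.2% of 12838 genes lay past 1.5-fold in either direction. Some of the 7 genes lay past 1.5-fold in BECs too. *Thbs1* was higher in capillary-like, *Lrat*- and *Apcdd1*-led, arterial-like, and activated venous-like BECs, and lower in venous-like BECs. *F2rl1* was higher in capillary-like BECs, *Procr* was lower in activated venous-like BECs, and *Slco2a1* was lower in both venous types.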

How the data were processed

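Processed files of 8 plates and 2 droplet libraries were used. For the plates the authors deposited counts of reads for every gene in every well, made with TopHat2 and featureCounts on GRCm38 (mm10) after duplicate reads were removed, and UMI counts per gene and cell made with Cell Ranger for the libraries, all without normalization. The genes were chosen, and the lists written, with earlier results of these data known, so neither is independent of them.

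Wells with at least 1000 detected genes and cells with at least 500 genes and at most 10% mitochondrial UMIs were clustered (scanpy 1.11.5, 2000 variable genes, 30 components, 15 neighbours, Leiden resolution 1), leaving out 87 hemostasis genes and 12 genes that the paper names. A cluster took a name when 3 or more markers, and at least 0.5 of the list (0.6 for other cell types and activated venous BECs), were raised 1.5-fold and found in 10% of its cells. LEC clusters left without a name were called capillary-like, by a rule set on the data, when 5 or more of 7 capillary markers were raised 1.5-fold over the mean of the collector-like and valve-like clusters and depth was at least 0.667 of the median. On the plates all 4 capillary-like clusters were named in this second way, with 0 to 3 of the 7 markers raised over the other LECs, and 2 clusters with the markers but relative depths of 0.59 and 0.401 stayed unnamed. From the plates, 256 fibroblast-like and 26 keratinocyte-like wells were left out. Scrublet called 0.669% and 0.0675% of cells as doublets and so had not worked, and the 23 and 2 cells it called were removed.

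Counts of LEC wells were summed per plate (67252016 to 102871381 counts) and compared by the quasi-likelihood test of edgeR 4.0.16 in R 4.3.3 (filterByExpr, TMM, and Benjamini-Hochberg adjustment at 0.05) in 1 fit of 8 plates, with DESeq2 1.42.0 and limma 3.58.1 as alternatives. Each SE of an edgeR fit is the absolute log2 difference divided by the square root of its F statistic. It is not the spread of the plates. Classes were compared by exact sign-flip tests on log2(CPM + 1). Droplet levels are CPM with exact Poisson intervals at 95%, ratios have exact binomial ones, and shares are also given after thinning to 2000 UMIs. Intervals and floors of 3 counts cover counting error only. Named list genes are those called and the 2 most abundant tested genes of each list, of which 1 is not reported here. Tests were tried on simulated counts.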

Additional observations from a re-analysis of the deposited data

Results flagged for a closer look

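*Slco2a1* differed between the models. Its response to Tie1/-2 deletion was lower than that to Tie1 deletion by 4.65 on the log2 scale (-4.65, SE 0.61, edgeR adjusted p = 0.042), and the call was lost with any plate left out.

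The wells left out of the LEC sums, mostly fibroblast-like and shallow, held some of the 6 genes at levels above the highest control plate. *Vwf* was 98.0 CPM in the 26 wells of the Tie1Tie2iDLEC plate numbered 2, where the highest control had 66.4 CPM, and 350 of its 415 counts were in 1 well. *F8* was 20.7 CPM on the Tie1iDLEC plate numbered 1 (highest control 15.6 CPM), with 36 of 48 counts in 1 well. *Tfpi* was 181 and 225 CPM on the Tie1iDLEC plates and 76.5 CPM on the Tie1Tie2iDLEC plate numbered 2 (highest control 45.5 CPM), with 405 of 420, 162 of 310, and 90 of 324 counts in 1 well. *Plat* was 198 CPM on the Tie1iDLEC plate numbered 2 and 505 CPM on the Tie1Tie2iDLEC plate numbered 1 (highest control 86.5 CPM), with 262 of 273 and 268 of 421 counts in 1 well. *Pros1* was 750 CPM on the Tie1iDLEC plate numbered 2 (highest control 402 CPM), with 280 of 1035 counts in 1 well. These are values of few wells, and no test was made on them.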

How the results depend on the processing

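*Ptgs1* kept a negative difference with Tie1/-2 deletion in 19 of 19 alternatives and an adjusted p under 0.05 in 17 of them, and *Vwf* kept its sign in 19 and its call in 4 (RLE size factors, no filter on low counts, DESeq2, and wells with at least 2000 genes). Of the 6 genes, 2 were called with Tie1/-2 deletion, but 1 under the replicate block, with a term for table layout, the 4 plates of 1 strain alone, no cluster removed, the highest well left out, and limma, 0 without the collector-like cluster, and 0 to 1 with a plate left out. The difference between the deletions had 0 calls, but 1 without the filter and 2 with DESeq2. The average effect had 1 call, but 2 without the filter and with DESeq2, 0 without the collector-like cluster, and 0 to 1 with a plate left out. Over all genes, Tie1, Tie1/-2, difference, and average calls were 0, 234, 27, and 198, against 269, 1196, 617, and 1085 without the filter and 177, 1038, 453, and 888 with DESeq2. With a plate left out they were 90 to 224 for Tie1/-2 deletion, 4 to 17 for the difference, and 62 to 151 for the average, and without the collector-like cluster 134, 12, and 117. The alternatives without the collector-like cluster, the highest well, or the plates labelled female were chosen after seeing the data.

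Signs of differences near 0 turned. With Tie1 deletion *Vwf* was 0.0069 without the female plates, and *F8* was -0.40 under the replicate block, -1.62 without the female plates, and -0.43 with limma. With Tie1/-2 deletion *F10* was 0.0058 without the filter, and limma gave -0.030 for *Hs3st1*, -0.14 for *Ptger1*, and -0.014 for *Ptges3*. The difference for *F8* was -0.038 without the collector-like cluster. By class, *Plat* was -0.0651 (capillary-like, Tie1 deletion, hemostasis genes kept in the clustering), and at resolution 2 it was -0.34 (collector-like, Tie1 deletion) and -0.41 (capillary-like, Tie1/-2 deletion). The cause was not tested.

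With a plate left out, Tie1 deletion gave -1.86 to 1.02 for *F8*, -0.37 to 0.031 for *Tfpi*, and -0.27 to 0.21 for *Pros1*. Tie1/-2 deletion gave -0.10 to 2.49 for *F8*, -1.64 to 0.69 for *F10*, -0.11 to 0.17 for *Hs3st1*, -0.18 to 0.37 for *Ptger1*, -0.10 to 0.10 for *Ptges3*, and -0.46 to 0.71 for *S100a10*. *F8* gave -0.34 to 2.54 for the difference and -0.59 to 1.34 for the average. *Plat* gave -0.068 to 1.02 in valve-like, -0.20 to 0.33 in capillary-like, and -0.42 to 1.33 in collector-like LECs with Tie1 deletion, and -0.12 to 0.23 in capillary-like LECs with Tie1/-2 deletion.

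The labels give shared replicate numbers in the Tie1 strain only. Deviations of same-numbered plates there correlated at 0.113 (Pearson's r over 19879 genes, which are not independent), and at 0.0948 in the other strain, whose numbers follow sample order. With 2 pairs the samples share only a number, so the block is an alternative, under which *Vwf* had an adjusted p of 0.083 and *Ptgs1* of 0.013. *Vwf* in capillary-like LECs with Ang2 Ab had a ratio of 0.671 with at most 5% mitochondrial UMIs and 0.632 without the top 5% of Scrublet scores, and *Vwf* in venous-like BECs with IgG was 1421 CPM with the first setting and 1669 CPM as the mean of CPM per cell. All 18 class comparisons stayed above an adjusted p of 0.05 in the alternatives run. With 2 plates per genotype and few wells per gene, depth limits *Vwf*, *Ptgs1*, and *F8*.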
